A study of Mus musculus with 16 samples.

Results

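The 35 genes described here cover cholesterol synthesis, sterol sensing, transport inside the cell and efflux. They were named as a list of mouse symbols, and no measured value was part of that rule. The list was, however, chosen with earlier results of these data known. All 35 were among the 41388 genes listed in each count table, and all 35 passed the filter on low counts that left 15103 genes for testing. By role, 8 act in the mevalonate steps, 12 in the squalene and sterol steps, 7 in the control of the sterol regulatory element binding proteins (SREBPs), 3 in sterol transport between organelles and 5 in liver X receptor (LXR) signalling and efflux. Further genes of the pathway are not analysed here.

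Messenger levels were measured by RNA sequencing after ribosomal RNA removal in 16 libraries of Swiss Webster mouse cortical cultures, prepared at embryonic day 16. At day 5 in vitro the cultures received 2 lentiviruses. One expressed huntingtin (Htt) exon 1, the other a short hairpin RNA (shRNA), and lysis for RNA followed at day 10. Exon 1 carried 25 glutamines (25Q, wild type) or 72 glutamines (72Q, mutant), the latter a length like those that cause Huntington disease. Control shRNA, against luciferase, went with 25Q in one group and with 72Q in another. The remaining groups combined 72Q with either Twist1 shRNA 1 or Twist1 shRNA 2, and every group had n = 4 libraries. No group carried 25Q with a Twist1 shRNA, so the shRNAs were compared with the control in 72Q cultures only, and every group carried an exon 1 virus in addition to the neurons' own Htt gene. Every group had 1 library in each experiment, labelled exp107, exp108, exp109a and exp109b. Values for the 4 libraries of a group are always given in that order of experiments. The labels exp109a and exp109b share a number and are counted here as separate experiments. Whether they were independent is not stated in the labels.

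Cells make cholesterol from acetyl units through mevalonate, the isoprenoids, squalene and lanosterol. When sterols in the endoplasmic reticulum fall, SCAP carries SREBP proteins to the Golgi, where proteases release a transcription factor that raises synthesis genes, and INSIG proteins hold SCAP back when sterols are plentiful. LXRs, which bind oxysterols, raise efflux transporters such as Abca1. The brain makes its own cholesterol, because lipoproteins of the blood do not cross the blood-brain barrier, and both neurons and astrocytes synthesise it.

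Total counts ran from 15814525 to 19533034 per library, and the 35 genes together took 0.384 to 0.499% of counts in 72Q control libraries against 0.554 to 0.566% in 25Q. Mitochondrial genes took 3.16 to 3.59% of counts in 72Q control, 2.41 to 2.78% in 25Q, 2.39 to 3.26% with shRNA 1 and 2.10 to 2.78% with shRNA 2, so the 72Q control libraries lay above all of 25Q and shRNA 2 and overlapped shRNA 1. The part of this share in the comparisons below was not tested. Twist1 itself, the targeted gene, rose in 72Q against 25Q by 3.47 ± 0.30 on the log2 scale (adjusted p = 4.77e-12). Its level was low, at 0.271 ± 0.225 TMM-scaled CPM (SD, n = 4) in 25Q and 4.15 ± 0.763 in 72Q control. The counts summed to 18 in 25Q and 294 in 72Q control, so the size of that rise is uncertain. Twist1 was lower with both shRNAs than with the control, with log2 fold changes of -1.35 ± 0.21, adjusted p = 1.52e-06 (shRNA 1) and -1.29 ± 0.20, adjusted p = 2.97e-06 (shRNA 2). All 4 experiments had the same direction each time. The same holds for every change named below that passed the test, unless the number of experiments is stated. All 9 neuron markers listed had counts in every library, and so did all 11 astrocyte and all 9 oligodendrocyte-lineage markers, so the cultures held RNA of glial types beside neurons. Of 8 microglia markers, only Aif1 reached 1 TMM-scaled CPM in any library, and C1qb and Tmem119 had no count in 11 and 10 of 16 libraries. In bulk RNA, fewer cells of a type and less RNA per cell cannot be told apart.

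Levels of different genes were compared per kilobase of transcript, as TMM-scaled RPKM (mean ± SD, n = 4). Hmgcs1, which makes HMG-CoA from acetoacetyl-CoA, had the highest level of the 35 in all 4 groups, at 571 ± 29.7 RPKM in 25Q and 279 ± 77.0 in 72Q control cultures. Srebf2, which encodes the SREBP that mainly drives cholesterol genes, followed at 94.2 ± 7.96 RPKM in 25Q and 99.9 ± 17.8 in 72Q control. Low in the list stood Idi1, the isopentenyl diphosphate isomerase, at 1.45 ± 0.134 and 1.45 ± 0.127 RPKM, and lowest Nr1h3 (LXR alpha), at 0.237 ± 0.0201 and 0.353 ± 0.111 RPKM. The partner receptor Nr1h2 (LXR beta) stood at 12.8 ± 0.184 RPKM in 25Q, far above Nr1h3. Summed over the 20 synthesis genes, the level was 1384, 1377, 1328 and 1332 RPKM in the 25Q libraries and 955, 661, 964 and 793 in the 72Q control libraries, which did not overlap. It was 1127, 1008, 1044 and 932 RPKM with shRNA 1 and 1446, 1112, 1403 and 1159 with shRNA 2. Every library with shRNA 2 lay above every 72Q control library. With shRNA 1 the sum was above the control of the same experiment in all 4 experiments, but the lowest shRNA 1 library, of exp109b, lay below the 2 highest control libraries. Hmgcs1 made up a large part of the sum. Without it, the other 19 genes summed to 779, 844, 761 and 754 RPKM in 25Q, 613, 474, 621 and 551 in 72Q control, 814, 757, 764 and 674 with shRNA 1 and 977, 806, 968 and 826 with shRNA 2.

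**Figure D1:**
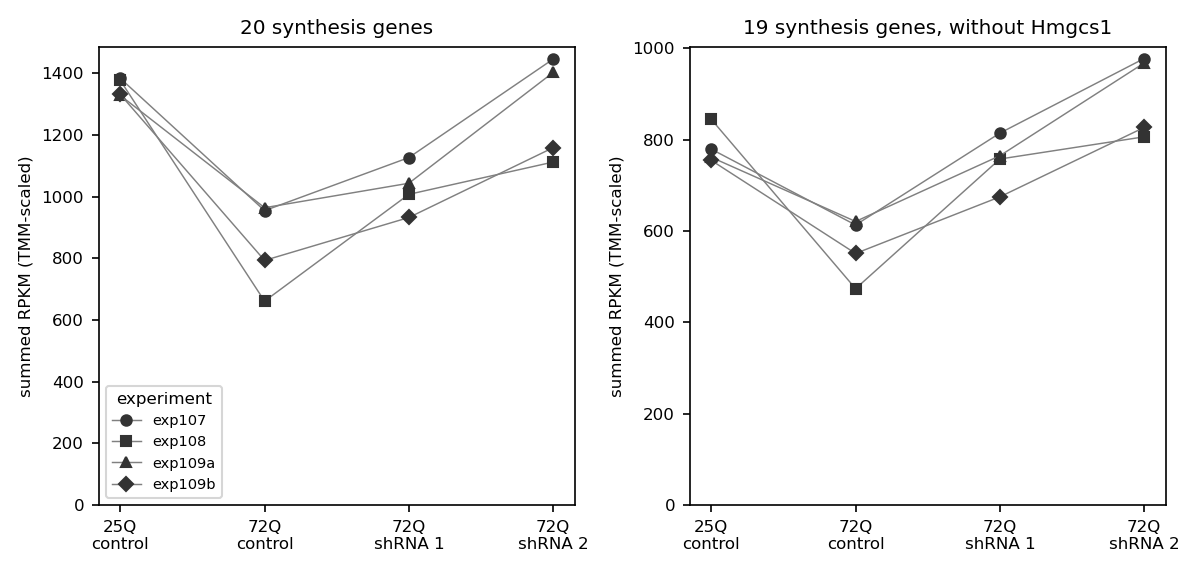
Summed TMM-scaled RPKM of the synthesis genes in each library, with all 20 genes (left) and without Hmgcs1 (right); a line joins the 4 libraries of an experiment. The 72Q control libraries are the lowest of their experiment in both panels, and the 72Q control library of exp108 is the lowest of all 16 at 661 RPKM.

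The first comparison asked how mutant huntingtin changed these genes, as 72Q against 25Q under the control shRNA. Most enzymes of cholesterol synthesis were lower with 72Q: 15 of the 20 synthesis genes fell and 3 rose, with a median log2 fold change of -0.36 against 0.03 over all genes tested. Within exp107, exp108, exp109a and exp109b the median of the 20 was -0.34, -0.75, -0.28 and -0.34, and without the 72Q control library of exp108 the count was again 15 lower and 3 higher. Over all 35 genes, 21 fell and 7 rose, where 27.8% of the 15103 genes tested fell and 29.3% rose. The count was 17 lower and 10 higher when libraries were scaled to their totals alone, a setting that moved the median of all genes to 0.163, and 12 of the 20 synthesis genes then fell and 4 rose. Neuron markers moved in the same comparison. All 9 were lower, their summed level being 7538 to 8381 CPM in 25Q and 4592 to 5697 in 72Q control. Of 11 astrocyte markers 6 rose and none fell, with sums of 2611 to 2836 and 2749.7 to 3130.5 CPM, and 4 of 6 progenitor markers rose, with sums of 164.0 to 238 and 198 to 269.5 CPM. Oligodendrocyte-lineage markers were higher for 3 and lower for 2 of 9. The part of these shifts, and of the higher mitochondrial share of the 72Q control libraries, in the sterol genes was not tested.

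Among the mevalonate steps, 5 of 8 genes fell with 72Q and 1 rose. Hmgcs1 (ENSMUSG00000093930, chr13:119690462-119708086 on GRCm38) stood at 1956, 1723, 1834 and 1866 TMM-scaled CPM in 25Q and at 1105, 607, 1111 and 785 CPM in 72Q control. The groups did not overlap, the 72Q level was 2.10-fold lower, and the log2 fold change was -1.07 ± 0.11, adjusted p = 7.36e-06. Mvd (ENSMUSG00000006517, chr8:122433596-122443422), which decarboxylates mevalonate diphosphate to isopentenyl diphosphate, was 159.8, 163, 148 and 143 CPM in 25Q and 73.5, 49.6, 79.4 and 57.7 CPM in 72Q control. It fell by 2.39-fold (-1.26 ± 0.12, adjusted p = 3.44e-06), with the lowest value in exp108. Acat2, the acetoacetyl-CoA thiolase of the first step, fell (-0.53 ± 0.095, adjusted p = 0.000282), although a close paralog (Acat3) leaves its count uncertain. The kinase Pmvk (-0.38 ± 0.061, adjusted p = 4.07e-06) and the farnesyl diphosphate synthase Fdps (-0.54 ± 0.084, adjusted p = 3.62e-05) also fell. Mvk, the first mevalonate kinase, went the other way at 0.17 ± 0.063, adjusted p = 0.0204, 3 of 4 experiments. That rise was small and lost its call when any of 6 libraries was left out (every one but the 25Q library of exp108 and the 72Q control library of exp108), for example 0.14, adjusted p = 0.0997 without the 72Q control library of exp109b, as well as without the block by experiment (0.18, adjusted p = 0.0856). Idi1 (0.01 ± 0.13, adjusted p = 0.951) and the geranylgeranyl diphosphate synthase Ggps1 (0.086 ± 0.067, adjusted p = 0.275), which feeds protein prenylation, did not pass the test.

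All 12 genes of the squalene and sterol steps passed the test, 10 lower and 2 higher. Tm7sf2 (ENSMUSG00000024799, chr19:6062821-6068373), a sterol C14 reductase, was 89.4, 80.9, 83.0 and 89.1 CPM in 25Q and 41.4, 21.2, 38.0 and 29.2 CPM in 72Q control. The groups did not overlap, and it fell by 2.70-fold (-1.43 ± 0.13, adjusted p = 1.05e-06). Some 15.3% of its exon bases are shared with Vps51 on the same strand, so part of its count could belong to that gene. The other protein with C14 reductase activity, Lbr, fell less (-0.35 ± 0.091, adjusted p = 0.00158). Nsdhl (ENSMUSG00000031349, chrX:72918557-72958514), a dehydrogenase that acts in removal of the C4 methyl groups, was 163, 169, 164 and 167 CPM in 25Q and 106, 66.0, 99.8 and 77.0 CPM in 72Q control (-0.95 ± 0.093, adjusted p = 8.68e-07). Its partner oxidase Msmo1 (ENSMUSG00000031604, chr8:64718139-64733792) was 146, 174, 150.1 and 156 and 117, 87.6, 118 and 89.9 CPM (-0.61 ± 0.098, adjusted p = 0.000125), again without overlap.

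The third enzyme of that demethylation complex, the ketoreductase Hsd17b7, did not fall with them. It was 50.3, 53.9, 53.9 and 52.0 CPM in 25Q and 66.6, 49.7, 71.8 and 68.9 CPM in 72Q control (0.28 ± 0.094, adjusted p = 0.0184, 3 of 4 experiments). The groups overlapped, and the call was lost without the block (0.29, adjusted p = 0.0528) and on leaving out the 25Q library of exp107 (0.24, adjusted p = 0.0662) or of exp109a (0.22, adjusted p = 0.072), or the 72Q control library of exp109b (0.22, adjusted p = 0.0676) or of exp107 (0.26, adjusted p = 0.0584). The lanosterol synthase Lss (ENSMUSG00000033105, chr10:76531588-76557138), which closes the sterol rings, was the clearest exception at 172, 170.3, 173 and 169.8 CPM in 25Q against 242, 184, 256 and 260.5 CPM in 72Q control, with no overlap (0.45 ± 0.084, adjusted p = 0.000333).

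Ebp, the sterol isomerase (-0.78 ± 0.10, adjusted p = 2.02e-07), and Cyp51, the lanosterol C14 demethylase (-0.62 ± 0.086, adjusted p = 2.27e-05), fell by middle amounts. Fdft1, the squalene synthase (-0.33 ± 0.087, adjusted p = 0.0049), Sqle, the squalene epoxidase (-0.33 ± 0.081, adjusted p = 0.00306), Sc5d, the sterol C5 desaturase (-0.27 ± 0.071, adjusted p = 0.0026), and Dhcr7, the 7-dehydrocholesterol reductase (-0.29 ± 0.049, adjusted p = 7.7e-06), had the smallest falls. With scaling to library totals alone, Fdft1 (-0.19, adjusted p = 0.0793), Sqle (-0.19, adjusted p = 0.0772) and Sc5d (-0.14, adjusted p = 0.143) kept their sign without passing the test. Some 26.8% of the exon bases of Fdft1 overlap Ctsb on the opposite strand, and its count is uncertain where strand was not used.

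**Figure D2:**
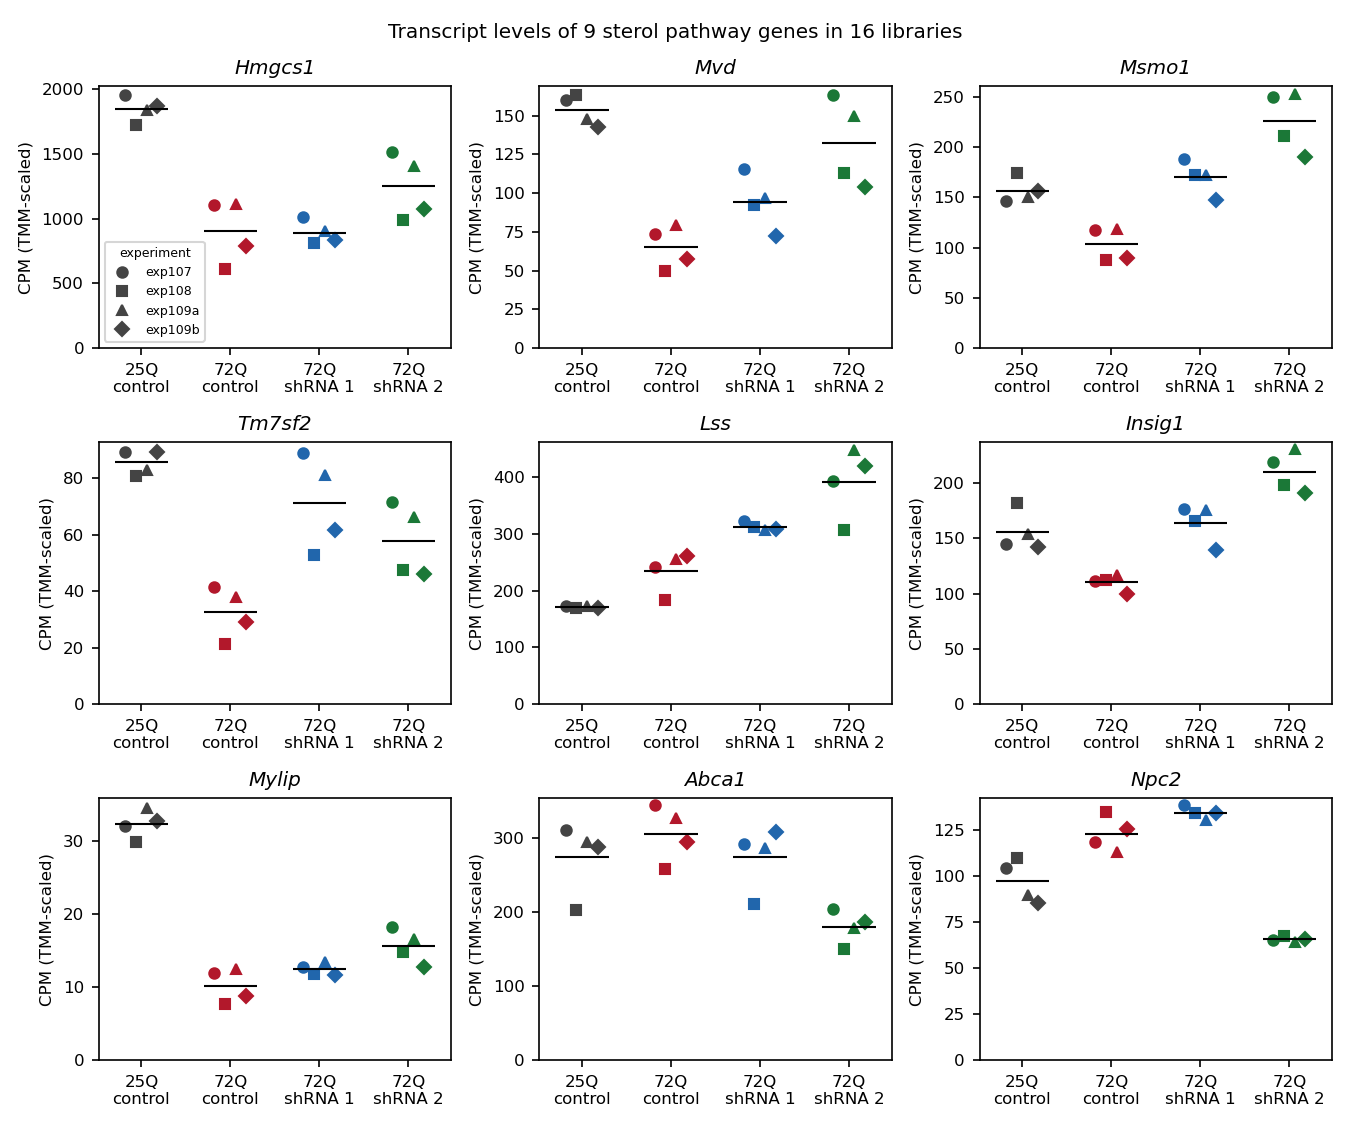
TMM-scaled CPM of selected genes in each of the 16 libraries, by group. Each point is 1 library, and Hmgcs1 lies between 1723 and 1956 CPM in 25Q and between 607 and 1111 CPM in 72Q control.

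The 7 SREBP regulators divided into 2 that rose, 2 that fell and 3 that did not pass the test. Both counts lie near the shares of all genes tested, of which 29.3% rose and 27.8% fell. Neither SREBP gene passed the test, Srebf1 at -0.052 ± 0.052, adjusted p = 0.409 and Srebf2 at 0.074 ± 0.048, adjusted p = 0.19. The 2 INSIG genes moved in opposite directions. Insig1 (ENSMUSG00000045294, chr5:28071363-28078662), itself a target of SREBPs, was 145, 182, 154 and 142 CPM in 25Q and 112, 113, 117 and 99.7 CPM in 72Q control (-0.50 ± 0.058, adjusted p = 3.21e-08). Insig2, whose transcription does not depend on SREBPs, was 20.2, 23.2, 20.6 and 23.1 and 29.9, 34.0, 26.6 and 32.0 CPM (0.49 ± 0.071, adjusted p = 6.65e-07). Neither pair of groups overlapped. The SREBP escort Scap fell (-0.30 ± 0.044, adjusted p = 1e-06) with 18.9% of its exon bases under an antisense gene, and the site-1 protease Mbtps1 rose (0.26 ± 0.05, adjusted p = 7.23e-05). The site-2 protease Mbtps2 was at -0.15 ± 0.067, adjusted p = 0.063.

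Of the transport genes, Stard4, a cytosolic sterol carrier and SREBP target, was 62.7, 74.1, 71.9 and 71.7 CPM in 25Q and 37.5, 28.1, 46.3 and 36.6 CPM in 72Q control, a fall of 1.91-fold (-0.93 ± 0.14, adjusted p = 0.00013). Npc2, the soluble lysosomal sterol carrier, rose (0.34 ± 0.053, adjusted p = 3.32e-06), while its membrane partner Npc1 did not pass the test (-0.00016 ± 0.048, adjusted p = 0.998, 95% interval -0.098 to 0.098). Among the LXR and efflux genes, Mylip (ENSMUSG00000038175, chr13:45389742-45412019), an LXR target that encodes a ubiquitin ligase for lipoprotein receptors, showed the largest change of all 35. It was 32.1, 29.9, 34.6 and 32.8 CPM in 25Q and 11.9, 7.70, 12.5 and 8.72 CPM in 72Q control, 3.17-fold lower (-1.67 ± 0.088, adjusted p = 1.08e-15). The efflux transporters moved apart, Abcg1 lower (-0.33 ± 0.063, adjusted p = 4.88e-05) and Abca1 higher (0.17 ± 0.051, adjusted p = 0.00559). The rise of Abca1 needed the block by experiment (0.16, adjusted p = 0.376 without it). Nr1h2 was slightly lower (-0.15 ± 0.051, adjusted p = 0.0139), a call lost with upper-quartile scaling (-0.085, adjusted p = 0.154), with scaling to library totals alone (-0.013, adjusted p = 0.836), with no filter on low counts (-0.15, adjusted p = 0.0575) and without the 72Q control library of exp108 (-0.13, adjusted p = 0.0512). Nr1h3, at 0.521, 0.611, 0.613 and 0.635 CPM in 25Q and 0.854, 1.11, 0.509 and 1.08 CPM in 72Q control, did not pass the test (0.50 ± 0.32, adjusted p = 0.129, 95% interval -0.084 to 1.23).

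Because most synthesis genes moved together, the promoters of 6 genes with large changes are shown, namely the synthesis genes Hmgcs1, Mvd, Tm7sf2 and Msmo1, the SREBP target Insig1, and Mylip. They were chosen after the values were seen. Windows run from 250 bases before to 50 after an annotated start of transcription, 5′ to 3′ on the gene's strand, from RefSeq on GRCm38.p6. The start used was the one nearest the 5′ end of the counted gene, so a window can lie inside that gene. The Tm7sf2 window does, since the counted gene spans chr19:6062821-6068373. They are Hmgcs1 at chr13:119690101-119690400 (+ strand), Mvd at chr8:122443373-122443672 (- strand), Tm7sf2 at chr19:6067801-6068100 (- strand), Msmo1 at chr8:64733529-64733828 (- strand), Insig1 at chr5:28071162-28071461 (+ strand) and Mylip at chr13:45389492-45389791 (+ strand). Capitals mark CCAAT, the site of the NF-Y factor that works with SREBPs, on either strand, and in Hmgcs1 also a match to the sterol regulatory element core TCACNCCAC.
Hmgcs1: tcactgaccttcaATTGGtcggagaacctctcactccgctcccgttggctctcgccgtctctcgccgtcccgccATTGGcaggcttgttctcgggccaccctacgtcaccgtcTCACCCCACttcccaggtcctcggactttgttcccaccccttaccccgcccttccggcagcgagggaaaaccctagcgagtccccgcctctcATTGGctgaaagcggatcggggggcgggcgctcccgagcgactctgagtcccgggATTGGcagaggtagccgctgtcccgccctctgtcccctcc
Mvd: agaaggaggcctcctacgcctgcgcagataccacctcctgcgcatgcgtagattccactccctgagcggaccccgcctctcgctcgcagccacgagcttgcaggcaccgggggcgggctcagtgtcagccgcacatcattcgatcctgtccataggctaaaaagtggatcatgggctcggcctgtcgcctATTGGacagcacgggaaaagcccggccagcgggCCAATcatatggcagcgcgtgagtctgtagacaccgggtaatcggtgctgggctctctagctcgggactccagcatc
Tm7sf2: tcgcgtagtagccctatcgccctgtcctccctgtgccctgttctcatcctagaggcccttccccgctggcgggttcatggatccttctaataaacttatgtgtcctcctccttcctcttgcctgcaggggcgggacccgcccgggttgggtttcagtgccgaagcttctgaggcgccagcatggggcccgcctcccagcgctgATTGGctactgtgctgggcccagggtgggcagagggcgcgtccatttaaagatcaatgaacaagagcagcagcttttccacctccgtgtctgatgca
Msmo1: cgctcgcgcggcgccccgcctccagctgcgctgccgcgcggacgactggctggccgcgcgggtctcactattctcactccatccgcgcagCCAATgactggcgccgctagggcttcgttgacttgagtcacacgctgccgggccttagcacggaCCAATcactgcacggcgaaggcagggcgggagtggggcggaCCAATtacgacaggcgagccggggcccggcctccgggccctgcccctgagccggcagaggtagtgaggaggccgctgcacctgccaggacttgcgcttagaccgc
Insig1: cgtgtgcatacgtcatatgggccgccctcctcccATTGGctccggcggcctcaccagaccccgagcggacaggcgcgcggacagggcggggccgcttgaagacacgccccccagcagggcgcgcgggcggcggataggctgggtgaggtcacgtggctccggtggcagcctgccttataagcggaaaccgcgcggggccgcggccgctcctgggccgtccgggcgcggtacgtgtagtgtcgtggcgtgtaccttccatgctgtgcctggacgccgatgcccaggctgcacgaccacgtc
Mylip: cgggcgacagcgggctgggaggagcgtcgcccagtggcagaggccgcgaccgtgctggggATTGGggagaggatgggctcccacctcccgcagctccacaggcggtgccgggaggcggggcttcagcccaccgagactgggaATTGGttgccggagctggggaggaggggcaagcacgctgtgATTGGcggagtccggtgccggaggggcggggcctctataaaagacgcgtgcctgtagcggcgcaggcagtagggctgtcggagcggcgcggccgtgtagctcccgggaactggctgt

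Windows were found for 29 of the 35 genes, Fdps, Fdft1, Sqle, Stard4, Npc1 and Abcg1 being the others. Exact matches on both strands were counted in the 29 windows and in those of all 11359 tested genes that had one. TCACNCCAC was present in 1 of the 29, Hmgcs1, as TCACCCCAC beginning 137 bases before the start, and in 1.07% of all windows. CCAAT was present in 20 of the 29 and in 38.3% of all windows. Mvk held 5 copies of it, Hmgcs1 and Nsdhl 4 each, and Ggps1, Msmo1, Hsd17b7, Insig2 and Mylip 3 each. The 9 windows without it were those of Acat2, Pmvk, Dhcr7, Scap, Mbtps1, Mbtps2, Abca1, Nr1h2 and Nr1h3. Among these, the Pmvk and Nr1h3 windows lie wholly inside the counted gene, so they may miss the sequence before its 5′ end. The GC box GGGCGG was present in 22 of the 29 and 64.8% of all. The E-boxes CACGTG, the palindromic form, and CATCTG were in 5 and 4 of the 29 and in 9.94% and 11.5% of all. The 4 with CATCTG were Mvk, Idi1, Dhcr7 and Srebf1. None of these motifs contains another, and a match describes the letters only.

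The next comparisons asked what the Twist1 shRNAs did in 72Q cultures. With shRNA 1, 14 of the 20 synthesis genes rose and none fell against the control, with a median log2 fold change of 0.37. With shRNA 2, all 20 rose, with a median of 0.64 and single values from 0.33 to 1.13. The medians of all genes tested were -0.0054 and 0.0015. Over the 35 genes, 21 rose and 2 fell with shRNA 1, where 22.7% of all genes tested rose and 23.6% fell. With shRNA 2, 25 rose and 5 fell, where 20.2% of all rose and 21.5% fell. Both comparisons use the same 4 control libraries, which also stand in the comparison of 72Q with 25Q, so a low value in a control library pushes all 3 at once. Within each experiment the median of the 20 synthesis genes was 0.41, 0.65, 0.27 and 0.27 with shRNA 1 and 0.63, 0.71, 0.62 and 0.51 with shRNA 2. The control library of exp108, the one with the lowest synthesis level, gave the highest median of both, and the other 3 experiments had the same direction. With shRNA 2, all 20 genes were above the control in each of the 4 experiments, and with shRNA 1 the number was 17, 20, 16 and 16. Without the control library of exp108, 14 synthesis genes rose and 1 fell with shRNA 1 (Mvk, -0.15, adjusted p = 0.0268), and 19 rose with shRNA 2.

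**Figure D3:**
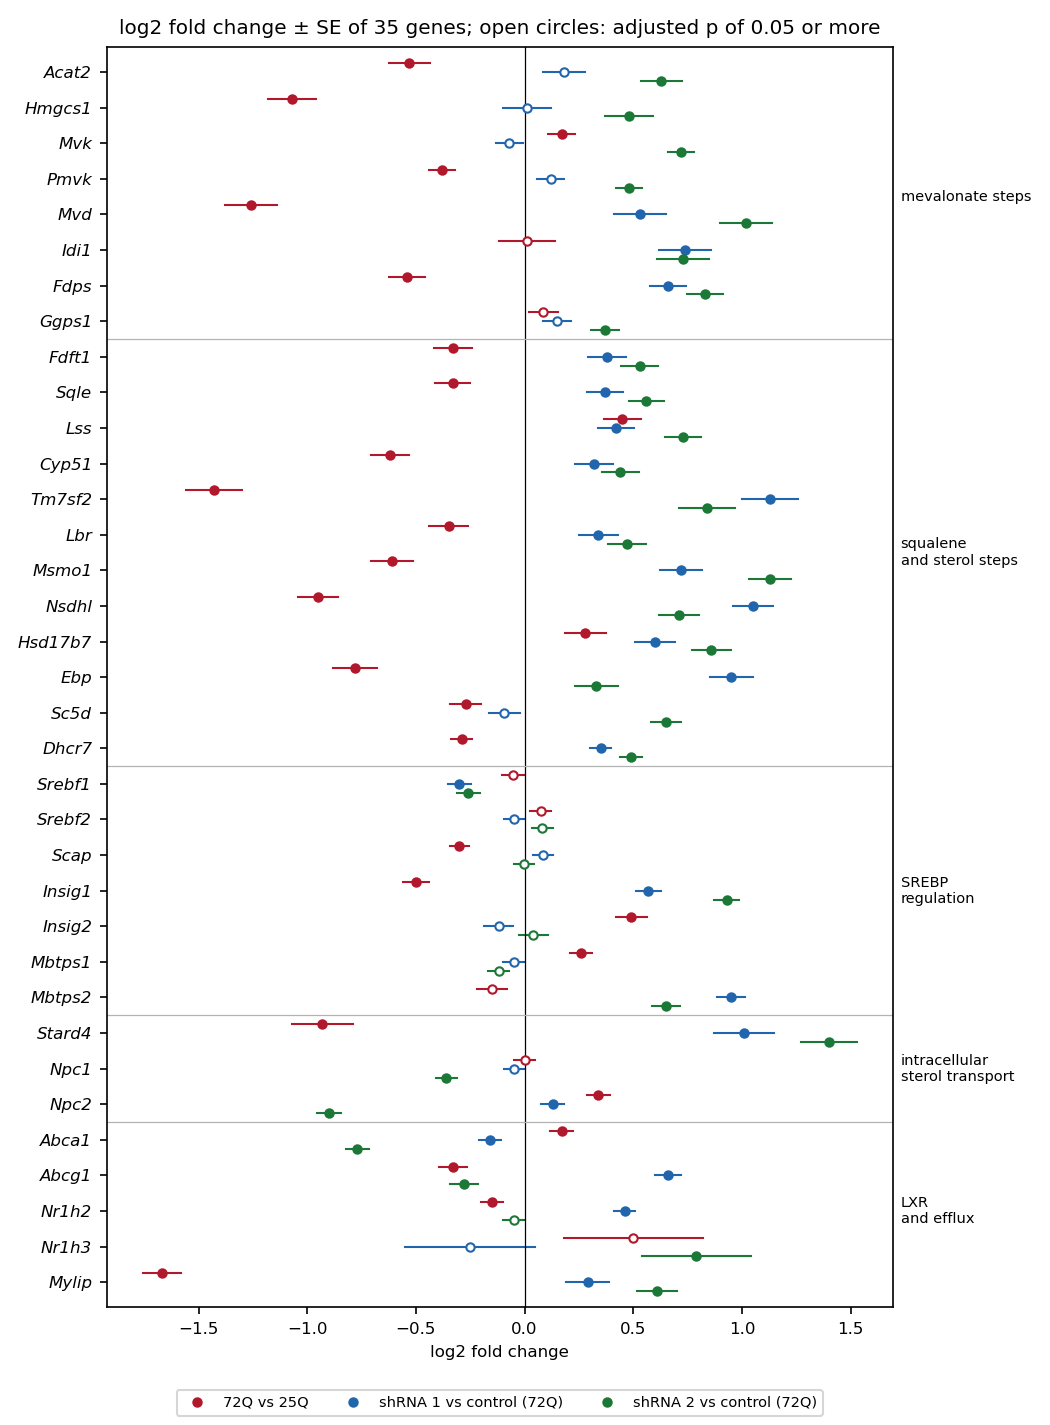
Log2 fold change ± SE of each gene in 72Q against 25Q and for either Twist1 shRNA relative to the control in 72Q, ordered by role; filled points have an adjusted p under 0.05. With shRNA 2 all 20 synthesis genes lie above 0, from 0.33 to 1.13; the 3 comparisons share the 72Q control libraries.

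In the squalene and sterol steps, 11 of 12 genes rose with shRNA 1 and 12 of 12 with shRNA 2. Msmo1 was 189, 172, 172 and 147 CPM with shRNA 1 and 249.7, 211, 253 and 190.0 CPM with shRNA 2, above every 72Q control library in both. It rose by 0.72 ± 0.097 (adjusted p = 4.05e-05) and 1.13 ± 0.097 (adjusted p = 7.21e-07). Tm7sf2 was 88.9, 52.9, 81.2 and 61.6 CPM and 71.7, 47.5, 66.2 and 46.2 CPM, a rise of 1.13 ± 0.13 (adjusted p = 1.35e-05) and of 0.84 ± 0.13 (adjusted p = 0.000211). Nsdhl was 197, 171, 189 and 160.2 and 170.3, 124, 146 and 126 CPM (1.05 ± 0.093, adjusted p = 4.18e-07 with shRNA 1 and 0.71 ± 0.093, adjusted p = 3.03e-05 with shRNA 2). The control values of these 3 genes, given above, did not overlap either shRNA.

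Lss and Hsd17b7, which had not fallen with 72Q, rose as well. Lss reached 323, 312, 306 and 309.7 CPM with shRNA 1 and 394, 307, 448 and 419.6 CPM with shRNA 2 (0.42 ± 0.083, adjusted p = 0.000665, and 0.73 ± 0.083, adjusted p = 4.06e-06). Hsd17b7 reached 97.6, 96.9, 106 and 87.5 and 119, 92.0, 142 and 114 CPM (0.60 ± 0.09, adjusted p = 5.21e-05, and 0.86 ± 0.089, adjusted p = 1.56e-06). Fdft1 (0.38 ± 0.087 and 0.53 ± 0.086), Sqle (0.37 ± 0.081 and 0.56 ± 0.081), Cyp51 (0.32 ± 0.086 and 0.44 ± 0.085), Lbr (0.34 ± 0.09 and 0.47 ± 0.088) and Dhcr7 (0.35 ± 0.049 and 0.49 ± 0.049) rose with both, shRNA 1 first, Lbr in 3 of 4 experiments with shRNA 1. Ebp rose with shRNA 1 (0.95 ± 0.099, adjusted p = 6.13e-09) and by less with shRNA 2 (0.33 ± 0.10, adjusted p = 0.0107). The latter call was lost without the block (0.34, adjusted p = 0.104), without the shRNA 2 library of exp107 (0.26, adjusted p = 0.0664) and without the control library of exp108 (0.23, adjusted p = 0.0778). Sc5d rose with shRNA 2 (0.65 ± 0.07, adjusted p = 1.86e-07) and was at -0.093 ± 0.071, adjusted p = 0.305 with shRNA 1.

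In the mevalonate steps, 3 of 8 genes rose with shRNA 1 and all 8 with shRNA 2. Idi1, Fdps and Mvd rose with both. Idi1 was 4.63, 5.49, 4.80 and 5.47 CPM in the control, 10.1, 8.08, 8.70 and 7.55 with shRNA 1 and 7.90, 8.26, 10.1 and 7.90 with shRNA 2, without overlap (0.74 ± 0.12, adjusted p = 5.51e-06, and 0.73 ± 0.12, adjusted p = 7.34e-06). Mvd averaged 94.3 ± 17.9 CPM (SD, n = 4) with shRNA 1 and was 163, 113, 149.5 and 104 CPM with shRNA 2 (0.53 ± 0.12, adjusted p = 0.0039, and 1.02 ± 0.12, adjusted p = 3.77e-05), and its shRNA 1 libraries overlapped the control. Fdps rose by 0.66 ± 0.084, adjusted p = 5.85e-06, and by 0.83 ± 0.083, adjusted p = 5.24e-07. Hmgcs1 was 1012, 809, 903 and 834 CPM with shRNA 1, which did not pass the test against the control at 0.01 ± 0.11, adjusted p = 0.951 (95% interval -0.24 to 0.26). With shRNA 2 it was 1516, 991, 1408 and 1075 CPM and rose (0.48 ± 0.11, adjusted p = 0.00496), although the groups overlapped. Mvk was 94.0, 76.5, 104 and 97.6 CPM in the control and 148, 148, 161 and 155 CPM with shRNA 2, a rise of 0.72 ± 0.061, adjusted p = 3.05e-10, against -0.07 ± 0.062, adjusted p = 0.378 with shRNA 1. Acat2, Pmvk and Ggps1 rose with shRNA 2 (0.63 ± 0.094, 0.48 ± 0.06 and 0.37 ± 0.063) and did not pass the test with shRNA 1 (0.18 ± 0.096, 0.12 ± 0.061 and 0.15 ± 0.065).

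Among the regulators, Insig1 reached 177, 166, 176 and 139 CPM with shRNA 1 and 219, 198, 231 and 191 CPM with shRNA 2, above all control libraries (0.57 ± 0.058, adjusted p = 4.07e-09, and 0.93 ± 0.058, adjusted p = 4.13e-13). Mbtps2 was 39.3, 45.1, 38.8 and 38.8 CPM in the control, 83.8, 83.3, 77.3 and 69.3 with shRNA 1 and 67.7, 65.3, 65.4 and 57.2 with shRNA 2 (0.95 ± 0.064, adjusted p = 5.21e-13, and 0.65 ± 0.064, adjusted p = 2.11e-09). The groups did not overlap, but 28.4% of its exon bases are shared with Yy2 on the same strand. Srebf1 fell with both (-0.30 ± 0.053, adjusted p = 2.02e-05, and -0.26 ± 0.053, adjusted p = 0.000154), and Srebf2 passed the test with neither (-0.049 ± 0.048 and 0.082 ± 0.048). Scap (0.085 ± 0.044 and -0.0028 ± 0.044), Insig2 (-0.12 ± 0.068 and 0.04 ± 0.067) and Mbtps1 (-0.051 ± 0.05 and -0.12 ± 0.05) did not pass it either, shRNA 1 first. Stard4 was 82.5, 67.0, 84.2 and 65.3 CPM with shRNA 1 and 107, 72.5, 128 and 85.9 CPM with shRNA 2, 2.02 and 2.63 times the control (1.01 ± 0.14, adjusted p = 9.23e-05, and 1.40 ± 0.13, adjusted p = 7.75e-06). No control library reached the lowest of them.

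The lysosomal and efflux genes differed in direction among themselves and between the shRNAs. Npc2, Npc1, Abca1 and Abcg1 fell with shRNA 2. Npc2 was 119, 135, 113 and 125 CPM in the control and 65.4, 67.5, 64.1 and 65.9 CPM with shRNA 2 (-0.90 ± 0.054, adjusted p = 4.79e-14). Abca1 (ENSMUSG00000015243, chr4:53030787-53159895) was 345, 259, 328 and 295 CPM in the control and 205, 150.3, 179 and 187 CPM with shRNA 2 (-0.77 ± 0.052, adjusted p = 5.66e-13), and neither gene's groups overlapped. Npc1 fell by less (-0.36 ± 0.048, adjusted p = 4.48e-07), and so did Abcg1 (-0.28 ± 0.064, adjusted p = 0.000899). With shRNA 1, Abcg1 rose instead, from 62.4, 52.4, 55.6 and 49.7 CPM in the control to 86.9, 88.8, 87.1 and 82.8 CPM (0.66 ± 0.062, adjusted p = 7.78e-10), as did Nr1h2 (0.46 ± 0.05, adjusted p = 6.58e-09). Npc1 with shRNA 1 (-0.047 ± 0.048, adjusted p = 0.447) and Nr1h2 with shRNA 2 (-0.048 ± 0.051, adjusted p = 0.482) did not pass the test.

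Smaller calls with shRNA 1 depended on single libraries or on the block. Abca1 was slightly lower (-0.16 ± 0.051, adjusted p = 0.00915, 3 of 4 experiments), but not without the block (-0.16, adjusted p = 0.429), without the shRNA 1 library of exp107 (-0.13, adjusted p = 0.0578) or without the control library of exp108 (-0.13, adjusted p = 0.0622). Npc2 was slightly higher (0.13 ± 0.053, adjusted p = 0.0415, 3 of 4 experiments), a call lost without the block (0.13, adjusted p = 0.206), with DESeq2 (0.14, adjusted p = 0.0507) and on leaving out any of 5 libraries, the control libraries of exp109a and exp107 and the shRNA 1 libraries of exp109a, exp109b and exp107 (for example 0.10, adjusted p = 0.163 without the control of exp107). Mylip rose by 0.29 ± 0.098, adjusted p = 0.0142, with shRNA 1 and by 0.61 ± 0.093, adjusted p = 3.28e-06, with shRNA 2. The shRNA 1 call was lost without the block (0.28, adjusted p = 0.129), without the control library of exp109b (0.26, adjusted p = 0.0561) and without that of exp108 (0.21, adjusted p = 0.0991). Nr1h3 rose with shRNA 2 (0.79 ± 0.25, adjusted p = 0.00684) from a level under 1 CPM, but not without the control library of exp109a (0.59, adjusted p = 0.0613), and was at -0.25 ± 0.30, adjusted p = 0.465 with shRNA 1.

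Glial markers moved with shRNA 2 beside the fall of the lysosomal and efflux genes. Of 11 astrocyte markers 6 fell and none rose with shRNA 2, their sum being 2260.4 to 2834 CPM against 2749.7 to 3130.5 CPM in the control and 2871 to 3097 CPM with shRNA 1, where 1 rose and 1 fell. Of 9 oligodendrocyte-lineage markers, 7 fell with shRNA 2 and 6 with shRNA 1, the sums being 792 to 961, 937 to 1077 and, in the control, 1135 to 1323 CPM. All of these markers had counts in every library. Neuron markers were lower for 4 and higher for 2 of 9 with shRNA 2 and higher for 3 with shRNA 1, with sums of 4608 to 5556, 5209 to 5778 and 4592 to 5697 CPM in the same order. Progenitor markers fell for 5 of 6 with shRNA 2 and 2 of 6 with shRNA 1. The part of these markers in the sterol gene results was not tested.

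The 2 shRNAs were also compared directly, since each is aimed at the same gene and Twist1 itself did not differ detectably between them (-0.066 ± 0.24, adjusted p = 0.826, 95% interval -0.56 to 0.42). Of the 35 genes, 8 were higher and 17 lower with shRNA 1 than with shRNA 2, where 27.3% of all genes tested were higher and 25.9% lower. In the synthesis list 11 of 20 were lower with shRNA 1 and 2 were higher, at a median of -0.21 against 0.0046 for all genes. The mevalonate steps held 6 of the 11, led by Mvk (-0.79 ± 0.061, adjusted p = 2.58e-11), and followed by Mvd (-0.48 ± 0.12, adjusted p = 0.00491), Hmgcs1 (-0.47 ± 0.11, adjusted p = 0.00422), Acat2 (-0.46 ± 0.094, adjusted p = 0.000991), Pmvk (-0.36 ± 0.06, adjusted p = 7.56e-06) and Ggps1 (-0.22 ± 0.063, adjusted p = 0.00368). Of the sterol steps, Sc5d was 87.2, 81.2, 92.0 and 83.1 CPM with shRNA 1 and 140.2, 125, 161 and 151 CPM with shRNA 2, with no overlap (-0.75 ± 0.07, adjusted p = 1.53e-08). Msmo1 (-0.41 ± 0.094, adjusted p = 0.0027) and Lss (-0.31 ± 0.082, adjusted p = 0.0048, 3 of 4 experiments) were lower with shRNA 1 too.

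Ebp and Nsdhl were the 2 synthesis genes higher with shRNA 1 (0.62 ± 0.095, adjusted p = 2.87e-06, and 0.35 ± 0.09, adjusted p = 0.00528). For Idi1 (0.009 ± 0.11, 95% interval -0.21 to 0.23), Fdps (-0.17 ± 0.081, -0.34 to 0.0017), Fdft1 (-0.15 ± 0.085, -0.34 to 0.029), Sqle (-0.19 ± 0.081, -0.37 to -0.022), Cyp51 (-0.12 ± 0.085, -0.31 to 0.059), Lbr (-0.13 ± 0.085, -0.30 to 0.046) and Tm7sf2 (0.29 ± 0.12, 0.031 to 0.55) the shRNAs did not differ past the threshold. Small differences for Hsd17b7 (-0.25 ± 0.087), Dhcr7 (-0.13 ± 0.048), Srebf2 (-0.13 ± 0.048), Insig2 (-0.16 ± 0.067) and Stard4 (-0.38 ± 0.13) passed the test but were lost without the block (adjusted p = 0.0568 for Stard4, the lowest of the 5, to 0.385 for Srebf2). Hsd17b7 and Dhcr7 had that direction in 3 of 4 experiments. They were also lost on leaving out single libraries of shRNA 1 or shRNA 2. For Hsd17b7 these were shRNA 1 of exp107, exp109a and exp109b and shRNA 2 of exp107 and exp109a, with values down to -0.20 (adjusted p = 0.0881). For Dhcr7 these were shRNA 1 of exp107, exp109a and exp109b and shRNA 2 of exp107 and exp109b, with values down to -0.09 (adjusted p = 0.158). For Srebf2 these were shRNA 1 of exp107 and exp109a and shRNA 2 of exp107, with values down to -0.11 (adjusted p = 0.0981). For Insig2 these were shRNA 1 of exp107, exp109a and exp109b and shRNA 2 of exp107 and exp109a, with values down to -0.093 (adjusted p = 0.281). For Stard4 these were shRNA 1 of exp109a and exp109b and shRNA 2 of exp107 and exp109a, with values down to -0.31 (adjusted p = 0.086).

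**Figure D4:**
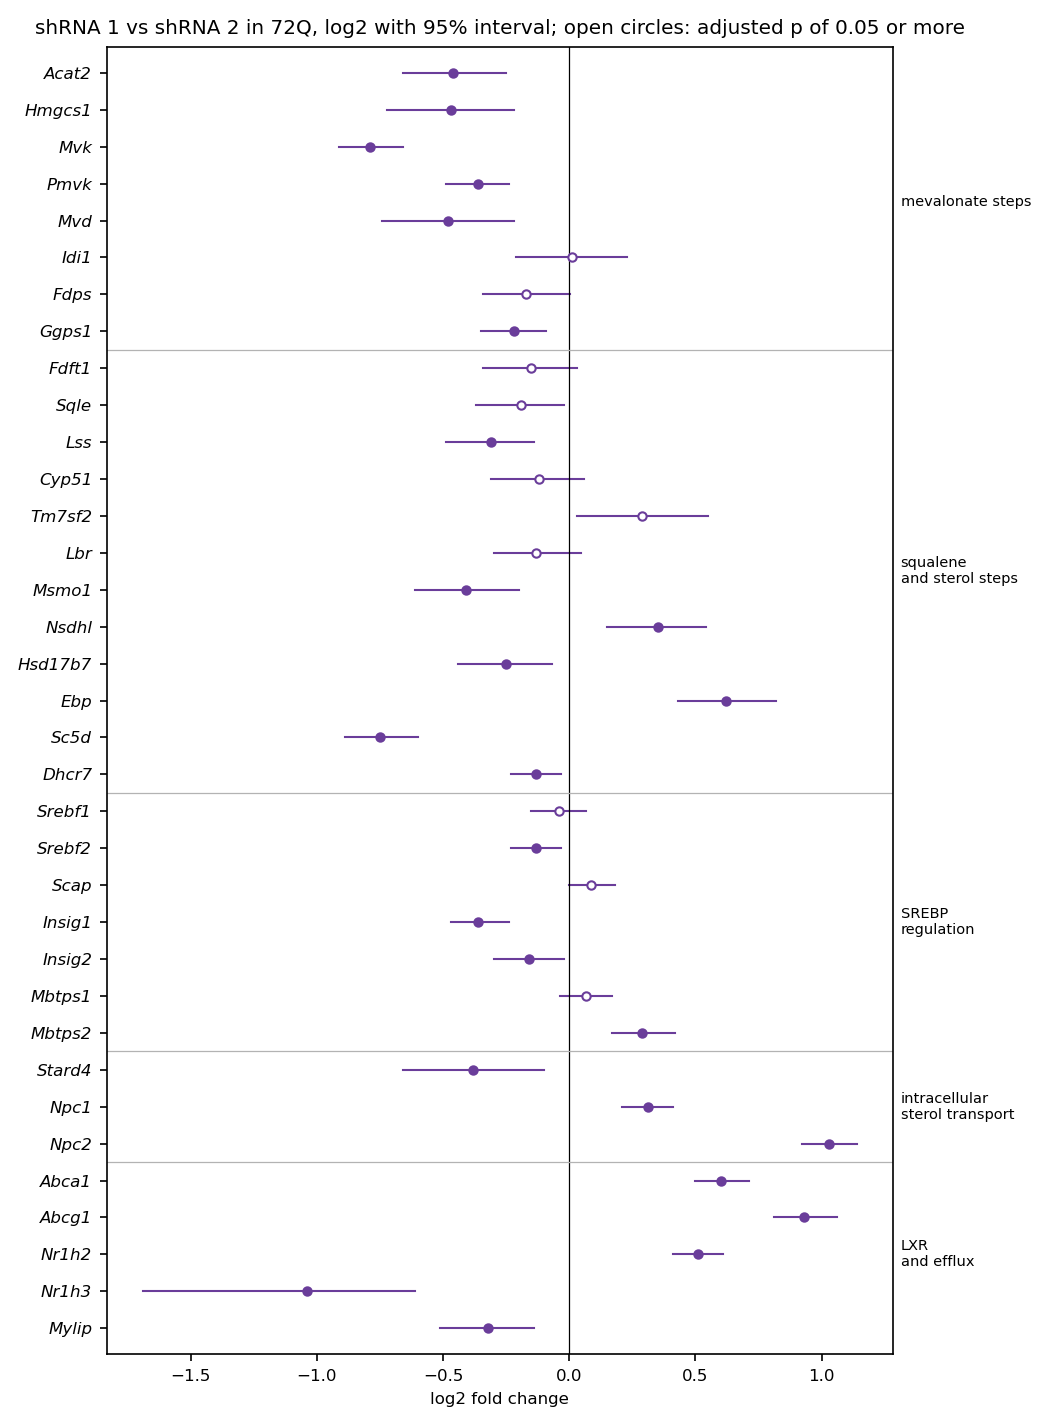
Log2 fold change with its 95% interval, shRNA 1 against shRNA 2, for each gene, ordered by role. Filled points have an adjusted p under 0.05. Npc2 at 1.03 and Abcg1 at 0.93 lie farthest to the right, and Nr1h3 at -1.04 and Mvk at -0.79 farthest to the left.

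Outside synthesis, the differences were as large. Npc2 was 139, 134, 130.4 and 134 CPM with shRNA 1, 2.04 times the level with shRNA 2 (1.03 ± 0.054, adjusted p = 7.2e-16). Abcg1 was 86.9, 88.8, 87.1 and 82.8 CPM with shRNA 1 and 47.7, 45.0, 43.2 and 45.3 CPM with shRNA 2 (0.93 ± 0.063, adjusted p = 4.81e-13), and Abca1 was 292, 211, 288 and 309 CPM with shRNA 1 (0.60 ± 0.052, adjusted p = 4.64e-11). In all 3 the 2 groups did not overlap. Npc1 (0.31 ± 0.048, adjusted p = 2.69e-06), Nr1h2 (0.51 ± 0.05, adjusted p = 6.37e-10) and Mbtps2 (0.29 ± 0.061, adjusted p = 0.000181) were higher with shRNA 1 as well. Insig1 was lower with shRNA 1 (-0.36 ± 0.057, adjusted p = 6.07e-06), and so were Nr1h3 (-1.04 ± 0.26, adjusted p = 0.000548) and Mylip (-0.32 ± 0.091, adjusted p = 0.0034), the last not without the block (-0.33, adjusted p = 0.0602). Srebf1 (-0.041 ± 0.053), Scap (0.088 ± 0.044) and Mbtps1 (0.066 ± 0.05) did not pass the test. Cell type markers differed in the same comparison. With shRNA 1, 7 of 9 neuron markers were higher and 2 lower, 5 of 11 astrocyte markers were higher and 1 lower, 7 of 9 oligodendrocyte-lineage markers were higher and none lower, and 4 of 6 progenitor markers were higher and 1 lower. Their part in these differences was not tested.

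Against 25Q, a comparison that leaves out the 72Q control libraries, the 72Q cultures with a Twist1 shRNA had some genes higher and others lower. Twist1 itself stayed above its low 25Q level, by 2.11 ± 0.37 (adjusted p = 1.04e-06) with shRNA 1 and 2.18 ± 0.36 (adjusted p = 3.39e-07) with shRNA 2. With shRNA 1, 4 of the 20 synthesis genes were higher and 7 lower than in 25Q, at a median of 0.055. With shRNA 2, 10 were higher and 4 lower, at a median of 0.20. Over the 35 genes, the counts were 10 higher and 10 lower with shRNA 1, where 28.1% of all genes tested were higher and 29.4% lower. Both counts with shRNA 1 thus lie near the shares of all genes. With shRNA 2 the counts were 17 higher and 12 lower, where 31.4% of all were higher and 31.8% lower. These splits depend on scaling. With shRNA 1, upper-quartile factors gave 16 higher and 9 lower and library totals alone gave 18 and 5, with the median of all genes at 0.093 and 0.133. With shRNA 2, upper-quartile factors gave 20 and 10 and library totals alone 21 and 8, with the median of all genes at 0.111 and 0.22. Both comparisons use the same 25Q libraries. Neuron markers were lower than in 25Q for 9 of 9 with shRNA 1 and 8 of 9 with shRNA 2. Astrocyte markers were higher for 5 and lower for 1 of 11 with shRNA 1, but higher for 1 and lower for 4 with shRNA 2. Oligodendrocyte-lineage markers were lower for 4 of 9 with shRNA 1 and 8 of 9 with shRNA 2. Progenitor markers were higher for 3 and lower for 1 of 6 with shRNA 1, and lower for 1 with shRNA 2. The part of these markers here was not tested.

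**Figure D5:**
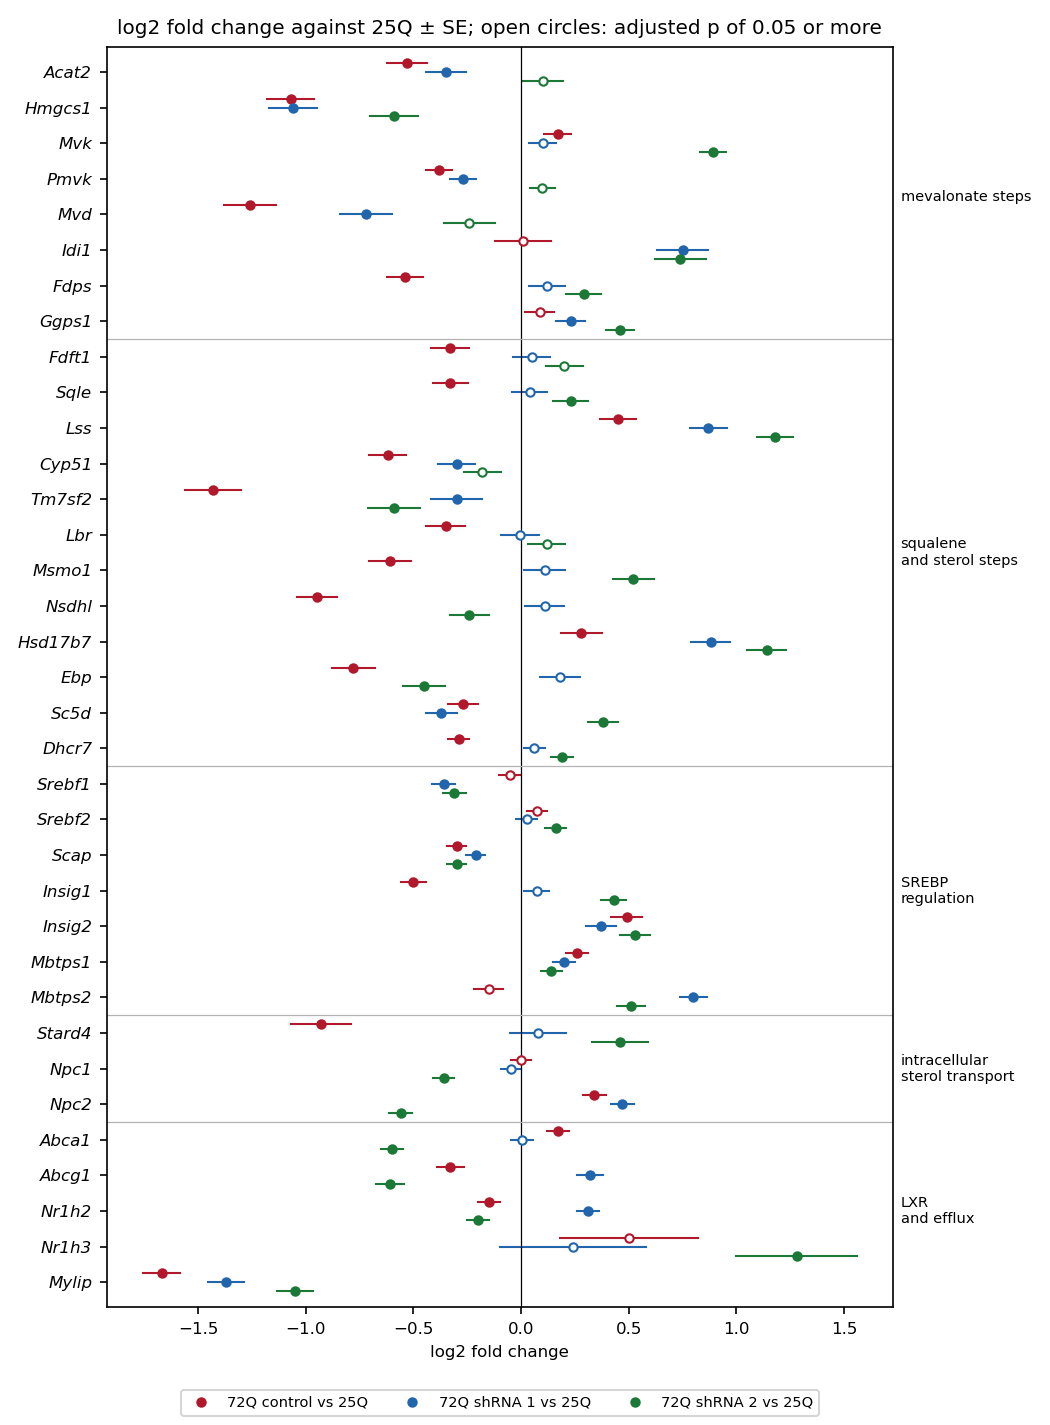
Log2 fold change ± SE of each gene against 25Q in 72Q control cultures and in 72Q cultures with each Twist1 shRNA; filled points have an adjusted p under 0.05. Hmgcs1 and Mylip stay to the left of 0 in all 3, with shRNA 2 at -0.59 and -1.05, and Lss and Hsd17b7 to the right, at 1.18 and 1.14 with shRNA 2; the 3 comparisons share the 25Q libraries.

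Hmgcs1 was lower than in 25Q, at -1.06 ± 0.11, adjusted p = 7.62e-06 with shRNA 1 and -0.59 ± 0.11, adjusted p = 0.00068 with shRNA 2, and no library of either reached the lowest 25Q library. Mylip was 12.8, 11.8, 13.4 and 11.7 CPM with shRNA 1 and 18.3, 14.8, 16.6 and 12.7 CPM with shRNA 2, also below all 25Q libraries (-1.37 ± 0.085, adjusted p = 2.26e-14, and -1.05 ± 0.082, adjusted p = 2.41e-12). Mvd was lower with shRNA 1 (-0.72 ± 0.12, adjusted p = 0.000276) and at -0.24 ± 0.12, adjusted p = 0.095 with shRNA 2. Tm7sf2 was lower with shRNA 2 (-0.59 ± 0.12, adjusted p = 0.000931). With shRNA 1 it was at -0.30 ± 0.12, adjusted p = 0.0479, and that call was lost on leaving out any 1 of 6 libraries, namely 25Q of exp109b, 25Q of exp108, shRNA 1 of exp109a, shRNA 1 of exp109b, shRNA 1 of exp107 and shRNA 1 of exp108 (down to -0.19, adjusted p = 0.142), without the block (-0.27, adjusted p = 0.297) and with library totals alone (-0.17, adjusted p = 0.25). Scap was lower with shRNA 1 (-0.21 ± 0.044, adjusted p = 0.000121) and shRNA 2 (-0.30 ± 0.044, adjusted p = 6.09e-07), the first not without the block (-0.21, adjusted p = 0.0607) and neither with library totals alone (-0.086, adjusted p = 0.0846, and -0.092, adjusted p = 0.061). Srebf1 was lower with both (-0.36 ± 0.053, adjusted p = 1.2e-06, and -0.31 ± 0.053, adjusted p = 5.81e-06), the latter not with library totals alone (-0.10, adjusted p = 0.0649).

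Other genes exceeded 25Q. Lss was higher with shRNA 1 (0.87 ± 0.084, adjusted p = 3.63e-07) and shRNA 2 (1.18 ± 0.084, adjusted p = 7.57e-09), the latter 2.27 times the 25Q level, and Hsd17b7 likewise (0.88 ± 0.092, adjusted p = 7.17e-07, and 1.14 ± 0.091, adjusted p = 2.54e-08). Idi1 was higher with both (0.75 ± 0.12, adjusted p = 3.57e-06, and 0.74 ± 0.12, adjusted p = 2.84e-06), as was Mbtps2 (0.80 ± 0.064, adjusted p = 9.36e-12, and 0.51 ± 0.064, adjusted p = 6.16e-08). Mvk (0.89 ± 0.061, adjusted p = 1.33e-12) was above every 25Q library with shRNA 2 and at 0.10 ± 0.063, adjusted p = 0.166 with shRNA 1. Ggps1 was higher with both (0.23 ± 0.066 and 0.46 ± 0.065), and so were Insig2 (0.37 ± 0.071 and 0.53 ± 0.07) and Mbtps1 (0.20 ± 0.05 and 0.14 ± 0.05). The shRNA 2 call of Mbtps1, seen in 3 of 4 experiments, was lost without the block (0.14, adjusted p = 0.0648) and without the 25Q library of exp109b (0.12, adjusted p = 0.0607) or exp108 (0.094, adjusted p = 0.12) or the shRNA 2 library of exp108 (0.12, adjusted p = 0.0608).

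A further set did not pass the test against 25Q with shRNA 1. Insig1 was at 0.072 ± 0.057 (95% interval -0.046 to 0.19), Stard4 at 0.079 ± 0.13 (-0.21 to 0.37), Msmo1 at 0.11 ± 0.095 (-0.098 to 0.32), Fdps at 0.12 ± 0.082 (-0.055 to 0.29), Nsdhl at 0.11 ± 0.09 (-0.088 to 0.30), Lbr at -0.0052 ± 0.088 (-0.18 to 0.17), Sqle at 0.04 ± 0.081 (-0.13 to 0.21), Fdft1 at 0.049 ± 0.086 (-0.14 to 0.23), Ebp at 0.18 ± 0.093 (-0.013 to 0.37) and Dhcr7 at 0.061 ± 0.049 (-0.038 to 0.16). With shRNA 2, several of these were higher than in 25Q, Msmo1 at 0.52 ± 0.095, adjusted p = 0.00035, Stard4 at 0.46 ± 0.13, adjusted p = 0.0084, 3 of 4 experiments, Insig1 at 0.43 ± 0.057, adjusted p = 2.19e-07, Fdps at 0.29 ± 0.081, adjusted p = 0.00551 and Dhcr7 at 0.19 ± 0.049, adjusted p = 0.000981, the last not without the block (0.20, adjusted p = 0.111). Sqle was higher with shRNA 2 by 0.23 ± 0.081, adjusted p = 0.0196, 3 of 4 experiments, but not without the 25Q library of exp107 (0.17, adjusted p = 0.0715) or exp109a (0.18, adjusted p = 0.0772) or the shRNA 2 library of exp109a (0.21, adjusted p = 0.0799) or exp107 (0.20, adjusted p = 0.0623). Lbr (0.12 ± 0.086) and Fdft1 (0.20 ± 0.086) did not pass the test with shRNA 2.

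Ebp was below 25Q with shRNA 2 (-0.45 ± 0.097, adjusted p = 0.000209), while Nsdhl was at -0.24 ± 0.091, adjusted p = 0.0336, 3 of 4 experiments, a call lost without the block (-0.22, adjusted p = 0.144), with library totals alone (-0.03, adjusted p = 0.785) and on leaving out 1 of 5 libraries, 25Q of exp108 or exp109b or shRNA 2 of exp108, exp109a or exp109b (for example -0.17, adjusted p = 0.121 without 25Q of exp108). Sc5d was lower with shRNA 1 (-0.37 ± 0.071, adjusted p = 0.000173) and higher with shRNA 2 (0.38 ± 0.069, adjusted p = 6.99e-05). Acat2 (-0.35 ± 0.094), Pmvk (-0.27 ± 0.06) and Cyp51 (-0.30 ± 0.085) were lower with shRNA 1, though not with library totals alone (adjusted p = 0.0717, 0.0581 and 0.123), and did not pass the test with shRNA 2 (0.10 ± 0.093, 0.099 ± 0.059 and -0.18 ± 0.085). Srebf2 was at 0.025 ± 0.048 with shRNA 1 and higher with shRNA 2 (0.16 ± 0.048, adjusted p = 0.00574), not without the block (0.16, adjusted p = 0.257).

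Lysosomal and efflux genes were lower than in 25Q with shRNA 2, namely Npc1 (-0.36 ± 0.048, adjusted p = 1.57e-07), Npc2 (-0.56 ± 0.055, adjusted p = 3.3e-10), Abca1 (-0.60 ± 0.052, adjusted p = 2.99e-11) and Abcg1 (-0.61 ± 0.064, adjusted p = 2.08e-09). With shRNA 1, Npc2 (0.47 ± 0.053, adjusted p = 9.7e-09), Abcg1 (0.32 ± 0.062, adjusted p = 5.63e-05) and Nr1h2 (0.31 ± 0.05, adjusted p = 3.6e-06) were higher than in 25Q, and Npc1 (-0.047 ± 0.048) and Abca1 (0.0058 ± 0.051) did not pass the test. The direct comparison of the shRNAs given above is the test of that difference. Nr1h2 was lower than 25Q with shRNA 2 (-0.20 ± 0.051, adjusted p = 0.00126), a direction that flipped with library totals alone (0.013, adjusted p = 0.826). Nr1h3 was higher with shRNA 2 (1.28 ± 0.28, adjusted p = 5.75e-05) and at 0.24 ± 0.34 with shRNA 1.

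Neighbouring pathways were counted from lists chosen with earlier results of these data known, and the genes named are those called with the largest rise or the largest fall of their list in 72Q against 25Q. The shares of all genes tested that rose and fell, given above, were 29.3% and 27.8% in 72Q, 22.7% and 23.6% with shRNA 1 and 20.2% and 21.5% with shRNA 2, and many of the counts lie near these shares. Of 12 genes of fatty acid synthesis and desaturation, also SREBP targets in part, 1 rose and 9 fell in 72Q against 25Q. With shRNA 1, 6 rose and 3 fell, and with shRNA 2, 5 rose and 1 fell. Slc25a1 was at -0.81 ± 0.047 in 72Q against 25Q (adjusted p = 8.55e-15). It was at 0.48 ± 0.047 with shRNA 1 and at -0.41 ± 0.048 with shRNA 2. It encodes the citrate carrier that exports acetyl units from mitochondria. Me1 was at 0.25 ± 0.05 in 72Q against 25Q (adjusted p = 7.1e-05). It was at -0.26 ± 0.049 with shRNA 1 and at -0.021 ± 0.049 with shRNA 2, the sign of the last depending on scaling (0.017 with upper-quartile factors). It encodes malic enzyme, a source of NADPH. Of 13 genes of lipoprotein receptors and sterol movement, 2 rose and 6 fell in 72Q against 25Q. With shRNA 1, 5 rose and 2 fell, and with shRNA 2, 6 rose and 3 fell. Vldlr was at -0.66 ± 0.045 in 72Q against 25Q (adjusted p = 3.36e-13). It was at 0.21 ± 0.046 with shRNA 1 and at 0.52 ± 0.045 with shRNA 2. It encodes a lipoprotein and reelin receptor. Lipa was at 0.54 ± 0.089 in 72Q against 25Q (adjusted p = 5.06e-06). It was at 1.10 ± 0.077 with shRNA 1 and at 0.34 ± 0.08 with shRNA 2, the last lost without the block (0.35, adjusted p = 0.0917). It encodes the lysosomal acid lipase that frees cholesterol from its esters. The other called fold changes of these 4 genes had the same sign in 4 of 4 experiments, and that of Me1 with shRNA 2 did not pass the test (adjusted p = 0.77).

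Of 8 genes of sterol esterification, hydroxylation and other transporters, 6 passed the filter. Of these, 3 rose and 2 fell in 72Q against 25Q. With shRNA 1, 3 rose and 2 fell, and with shRNA 2, 1 rose and 3 fell. Cyp7b1 was at 0.51 ± 0.095 in 72Q against 25Q (adjusted p = 2.65e-05). It was at -0.20 ± 0.091 with shRNA 1 and at -0.37 ± 0.091 with shRNA 2, the former not passing the test (adjusted p = 0.0682). It encodes an oxysterol hydroxylase. Abca2 was at -0.39 ± 0.046 in 72Q against 25Q (adjusted p = 2.23e-08). It was at 0.66 ± 0.046 with shRNA 1 and at -0.082 ± 0.046 with shRNA 2, the latter not passing the test (adjusted p = 0.16). Of 8 sterol-regulated ubiquitin ligases and partners, 3 rose and 1 fell in 72Q against 25Q. With shRNA 1, 1 rose and 2 fell, and with shRNA 2, 2 rose and 3 fell. Erlin1 was at -0.28 ± 0.069 in 72Q against 25Q (adjusted p = 0.000757). It was at -0.58 ± 0.073 with shRNA 1 and at -0.33 ± 0.071 with shRNA 2. The fall of Erlin1 in 72Q was lost with library totals alone (-0.15, adjusted p = 0.0647). Of 13 genes that use isoprenoids, 5 rose and 2 fell in 72Q against 25Q. With shRNA 1, 5 rose and 3 fell, and with shRNA 2, 2 rose and 1 fell. Zmpste24 was at 0.56 ± 0.059 in 72Q against 25Q (adjusted p = 2.73e-09). It was at -0.66 ± 0.059 with shRNA 1 and at -0.063 ± 0.057 with shRNA 2, the latter not passing the test (adjusted p = 0.399). It encodes the protease that processes farnesylated prelamin A. Rabggta was at -0.32 ± 0.056 in 72Q against 25Q (adjusted p = 1.1e-05). It was at 0.21 ± 0.056 with shRNA 1 and at 0.0089 ± 0.056 with shRNA 2, the latter not passing the test (adjusted p = 0.919).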

How the data were processed

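Gene-level RNA sequencing data of 16 libraries in 4 groups were used. Per the submitters' processing notes, reads were aligned with STAR 2.0.4b and counted with featureCounts 1.45 of Subread on GRCm38. Their settings for strand, multi-mapping reads and annotation were not given in the sources used here. The authors deposited raw read counts for 41388 genes, and every test started from these. Deposited CPM equalled each count over the library total to within 2.5e-11, and deposited RPKM equalled CPM per kilobase of listed gene length to within 4e-11, so neither entered a test.

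Genes were filtered with filterByExpr (15103 left), scaled by TMM and tested with the quasi-likelihood test of edgeR 4.0.16 (R 4.3.3, limma 3.58.1) on the 16 libraries jointly (terms: group, experiment) after the script was tested on simulated data. P-values were Benjamini-Hochberg adjusted over all genes tested, with a threshold of 0.05. Log2 fold changes (prior count 2) are given ± SE with the number of experiments of the same sign, and CPM and RPKM in the text are TMM-scaled, RPKM over the deposited length. The SE and 95% interval come from estimates without the prior count. At low counts the interval is therefore not centred on the printed value, as for Twist1 in 72Q against 25Q (3.31 to 4.55). The common biological coefficient of variation was 5.24%. Rose and fell are used for adjusted p-values under that threshold. Groups do not overlap where all libraries of one lie above, or all lie below, every library of the other. Every gene of the list is named, and from each neighbouring list the called gene with the largest rise and fall in 72Q against 25Q, except 1 that is not reported here. The members and lists were chosen with earlier results of these data known.

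Experiment entered as a block, since deviations from group means correlated across genes within experiments (0.223 to 0.612 over 24 pairs). Between experiments the correlations were -0.333 to 0.278, mean -0.128, over 72 pairs. These are no separate contrast, because deviations from a group mean cancel out over its libraries, which pushes them below those within experiments. Title numbers follow the experiments in 72Q but not in all 25Q libraries. The labels do not state that replicates came from separate cultures, and the p-values therefore reflect only how these samples varied. Gene symbols and exon overlaps came from GENCODE M21. Alternatives were DESeq2 1.42.0, other scalings, no filter, other blocks, only the 8 libraries compared, and leaving out each library.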

Additional observations from a re-analysis of the deposited data

Results flagged for a closer look

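Among 140 gene and group pairs, 6 held a library whose gap to the nearest of the other 3 exceeded Dixon's 95% limit, which chance passes in about 1 of 20 groups. The TMM-scaled levels were 5.78 CPM for Idi1 in the 25Q library of exp109b, the other 3 libraries of that group being at 4.77 to 4.91. Idi1 also had 10.1 CPM in the 72Q with Twist1 shRNA 2 library of exp109a, the other 3 libraries of that group being at 7.90 to 8.26. For Cyp51 the level was 358 CPM in the 25Q library of exp108, the other 3 libraries of that group being at 300.2 to 309. The control library of exp108 stood apart for Dhcr7 and Mbtps2, in opposite directions, with 165 CPM for Dhcr7 in the 72Q control library of exp108, the other 3 libraries of that group being at 201 to 208, and 45.1 CPM for Mbtps2 in the 72Q control library of exp108, the other 3 libraries of that group being at 38.8 to 39.3. Srebf2 was low in one library, with 439 CPM for Srebf2 in the 72Q with Twist1 shRNA 2 library of exp108, the other 3 libraries of that group being at 549 to 562.

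Npc2 and Abcg1 drew attention because the 2 Twist1 shRNAs moved them in opposite directions against the control and the direct test of shRNA 1 against shRNA 2 passed. For Npc2 the log2 fold change between the shRNAs was 1.03 ± 0.054, adjusted p = 7.2e-16, from 0.13 ± 0.053 with shRNA 1 and -0.90 ± 0.054 with shRNA 2, the shRNA 1 call being lost on leaving out 1 of 5 libraries. For Abcg1 it was 0.93 ± 0.063, adjusted p = 4.81e-13, from 0.66 ± 0.062 and -0.28 ± 0.064. Both differences had the same sign in 4 of 4 experiments.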

How the results depend on the processing

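The number of the 35 genes called stayed within 1.5 times its value under each of 16 alternatives in each of the 6 comparisons. In the order 72Q against 25Q, shRNA 1 and shRNA 2 against control, shRNA 1 against shRNA 2, and shRNA 1 and shRNA 2 against 25Q, 28, 23, 30, 25, 20 and 29 genes were called, and 21, 20, 28, 19, 15 and 21 of them kept sign and call under all 16. With no replicate block the counts were 25, 20, 29, 19, 18 and 25, with the title number as the pairing 26, 20, 30, 23, 20 and 29, and with the DESeq2 Wald test 28, 22, 30, 25, 20 and 31. Leaving out 1 library gave 26 to 29, 21 to 23, 29 to 31, 20 to 26, 19 to 23 and 27 to 30. The fit without the block lost 19 calls of the 35 genes over the 6 comparisons, in that order 3, 3, 1, 6, 2 and 4, as stated beside each, and gained none. All changes of sign but that of Nr1h2 in shRNA 2 against 25Q were of values that had not passed the test. With no replicate block it was Hmgcs1 in shRNA 1 against control -0.02. With upper-quartile factors the log2 fold changes that changed sign were Idi1 in shRNA 1 against shRNA 2 -0.0066, Lbr in shRNA 1 against 25Q 0.079, Srebf1 in 72Q against 25Q 0.011, Scap in shRNA 2 against control 0.035, Npc1 in 72Q against 25Q 0.063, Npc1 in shRNA 1 against 25Q 0.038 and Me1 in shRNA 2 against control 0.017. With library totals alone the log2 fold changes that changed sign were Idi1 in shRNA 1 against shRNA 2 -0.073, Cyp51 in shRNA 2 against 25Q 0.034, Lbr in shRNA 1 against 25Q 0.12, Srebf1 in 72Q against 25Q 0.083, Scap in shRNA 2 against control 0.072, Mbtps1 in shRNA 1 against shRNA 2 -0.017, Npc1 in 72Q against 25Q 0.13, Npc1 in shRNA 1 against 25Q 0.08, Nr1h2 in shRNA 2 against control 0.027, Nr1h2 in shRNA 2 against 25Q 0.013, Me1 in shRNA 2 against control 0.054 and Zmpste24 in shRNA 2 against control 0.012. With no filter the log2 fold changes that changed sign were Lbr in shRNA 1 against 25Q 0.0015 and Scap in shRNA 2 against control 0.0025. With only the 8 libraries compared the log2 fold changes that changed sign were Lbr in shRNA 1 against 25Q 0.0086 and Npc1 in 72Q against 25Q 0.007. With DESeq2 size factors in edgeR it was Scap in shRNA 2 against control 0.0068. With the DESeq2 Wald test it was Scap in shRNA 2 against control 0.0068. With the title number as the block it was Abca1 in shRNA 1 against 25Q -0.014. Leaving out 1 library changed the sign of others, whose ranges were -0.10 to 0.10 for Hmgcs1 in shRNA 1 against control, -0.047 to 0.098 for Idi1 in 72Q against 25Q, -0.10 to 0.097 for Idi1 in shRNA 1 against shRNA 2, -0.0018 to 0.15 for Fdft1 in shRNA 1 against 25Q, -0.023 to 0.12 for Sqle in shRNA 1 against 25Q, -0.073 to 0.031 for Lbr in shRNA 1 against 25Q, -0.11 to 0.0013 for Srebf1 in 72Q against 25Q, -0.094 to 0.015 for Srebf2 in shRNA 1 against control, -0.025 to 0.022 for Scap in shRNA 2 against control, -0.024 to 0.075 for Insig2 in shRNA 2 against control, -0.015 to 0.22 for Stard4 in shRNA 1 against 25Q, -0.021 to 0.012 for Npc1 in 72Q against 25Q, -0.046 to 0.034 for Abca1 in shRNA 1 against 25Q, -0.22 to 0.068 for Twist1 in shRNA 1 against shRNA 2, -0.037 to 0.0088 for Me1 in shRNA 2 against control and -0.0059 to 0.035 for Rabggta in shRNA 2 against control. The cause was not tested in any of these. Alternatives for Twist1 and for the genes of the neighbouring pathways were added after the data were seen. Depth limits Nr1h3 and Idi1, the lowest of the 35 genes.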
